A study of Mus musculus with 10 samples.

Results

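B16-F10-OVA is a derivative of the mouse melanoma line B16-F10 that carries the lentiviral construct pLV[Exp]-Neo-EF1A>{ovalbumin}, in which the EF1A promoter drives ovalbumin, a model antigen, beside a neomycin resistance gene. Its response to interferon gamma (IFN-γ) was taken from 5 of the 10 RNA-seq libraries of the series: 2 of untreated cells and 3 of cells kept for 24 h with 50 ng/ml IFN-γ. The other 5 libraries, with the same split of treatment, are of the parental line. The labels give each library its line and treatment, and no measured value was used to pick the libraries. The labels do not say whether the OVA line is 1 clone, nor whether the libraries of a group came from separate cultures, and a p-value then reflects only how far these libraries differ from each other, which can be technical. One protocol label mentions tissue, although every sample is labelled as a cell line. The ovalbumin transgene was not analysed here.

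The 5 OVA libraries held 17731959 to 18458563 counts each, and 15526 genes had enough counts to be tested. Root mean square log2 differences between libraries were 0.397 to 0.438 within a group and 0.99 to 1.01 between the untreated and the treated group. Of the melanoma label, the 14 melanocyte lineage markers summed to between 31963 and 32199 CPM (counts scaled to a common library size with TMM factors) untreated and to between 32823 and 33698 CPM treated. Of 10 T cell markers, Cd2, Cd3d, Cd3e and Trac had no counts in any OVA library, and the list summed to 1.86 to 1.94 CPM untreated and 3.43 to 4.23 CPM treated, most of it from the kinase gene Lck. The 14 macrophage and dendritic cell markers summed to 2.75 to 3.72 and 3.75 to 3.95 CPM, with 7 of them, Ptprc and Adgre1 among them, at 0. The 10 fibroblast markers summed to 15.0 to 17.1 and 9.97 to 10.7 CPM, and the 8 epithelial markers to 0.547 to 1.51 and 1.00 to 1.57 CPM. The 8 endothelial markers summed to 298 to 307 and 394 to 411 CPM, nearly all of it the TGF-β co-receptor gene Eng, while Cldn5, Emcn and Kdr were at 0.

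IFN-γ binds a receptor at the cell surface and signals through JAK kinases to genes with GAS elements in their promoters. Among the first targets are transcription factors of the IRF family, which in turn bind interferon-stimulated response elements (ISRE). Tumour cells given IFN-γ are known for making antigen-presenting molecules and T cell attracting chemokines, and in many lines for slowed growth. A list of 272 such standard interferon genes was set apart here, so that the remaining genes could be described on their own. As a check of the treatment, Irf1, a transcription factor of this pathway, was at 10.3 and 10.4 CPM untreated and 638, 665 and 679 CPM treated. The 3 treated libraries lay above both untreated ones (log2 change 5.99, SE 0.055, edgeR adjusted p = 8.35e-22). In the class I genes, H2-K1 stood at 15.3 and 14.9 CPM untreated and 609, 624 and 616 CPM treated and the light chain gene B2m at 122.7 and 129 CPM untreated and 1794, 1799 and 1879.8 CPM treated, again without overlap of the groups. Cd274, which encodes the checkpoint ligand PD-L1, was at 9.59 and 7.41 CPM untreated and 210.5, 216 and 214 CPM treated (log2 change 4.65). Irf1 and Cd274 each overlap a gene of the opposite strand with far fewer reads after treatment, Gm17334 and Gm36043.

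Of the 191 tested genes of the standard list, 177 rose and 9 fell, with a median log2 change of 5.04. Over all 15526 tested genes, 25.9% (4017) rose and 22.9% (3563) fell in edgeR's quasi-likelihood test at an adjusted p under 0.05, and the median log2 change was 0.002. The balance depended on the scaling: with upper quartile factors, which moved the median of all genes by -0.058, 3167 genes rose and 4318 fell, so that 42.3% of the called genes were higher against 53.0% with TMM factors. Most called changes were small, 69.2% of them under 1.5-fold. At least 2-fold higher were 5.29% of the tested genes (821), and 653 of these were outside the standard list. At least 2-fold lower were 2.79% (433), all but 1 outside the list.

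In reads, the response had 3 parts. The standard list took 0.317% to 0.318% of the counts untreated and 5.09% to 5.18% treated. The 653 genes outside it that were at least 2-fold higher went from 0.612% to 0.614% up to 2.03% to 2.06%. The 432 genes outside it that were at least 2-fold lower went from 4.57% to 4.62% down to 1.71% to 1.75%. These 2 gene sets were chosen on the same libraries, so their shares are a description, with no test.

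**Figure D1:**
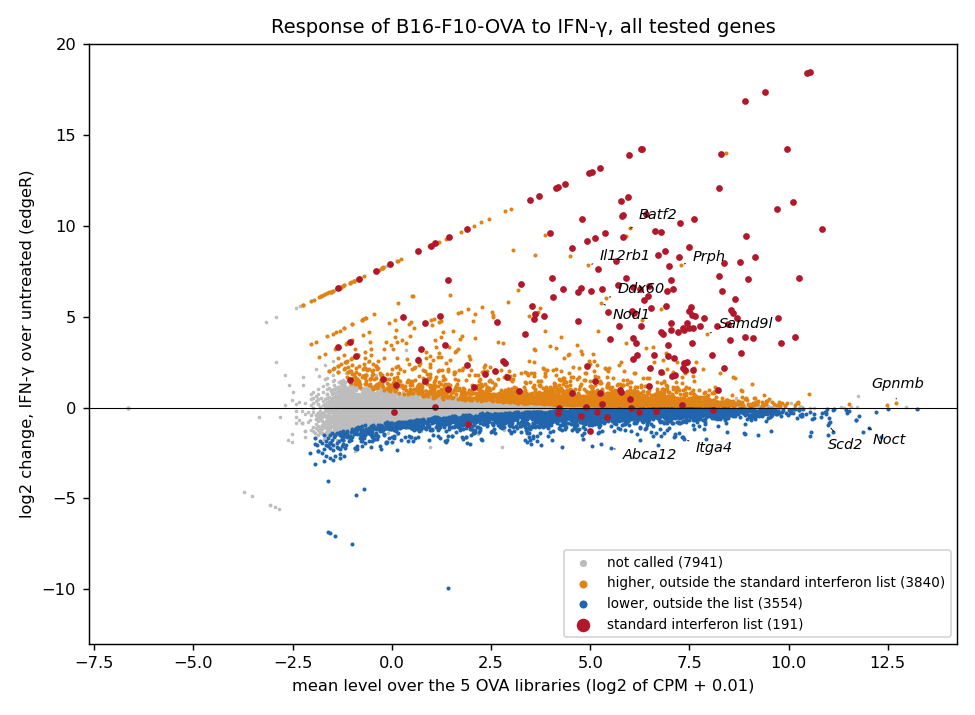
Log2 change of each of the 15526 tested genes in OVA cells given IFN-γ (vertical axis) against its mean level over the 5 OVA libraries (horizontal axis, log2 of CPM + 0.01), with the standard interferon list in red, other called genes in orange (3840 higher) and blue and genes not called in grey. Increases reach far larger sizes than decreases, and the straight upper edge is formed by genes with no counts in untreated cells, whose fitted change depends on the prior count.

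Outside the standard list, several genes went from silence to a clear level. Several of the genes described here, among them Batf2, Ddx60, Tnfsf10, Samd9l, Wars1 and Il18bp, are known interferon targets that the list does not hold. BC023105 had no counts untreated and stood at 17.4, 19.3 and 18.6 CPM treated, at least 226-fold higher against a floor of 3 counts over the untreated group. Serpina3f, a secreted serine protease inhibitor, went from no counts to 11.9, 12.1 and 12.3 CPM, at least 148-fold higher. Mpeg1, which encodes perforin-2, a pore-forming protein known from macrophages, went from no counts to 9.24, 8.77 and 9.42 CPM, at least 112-fold higher, while Ptprc and Adgre1 stayed at 0. None of these 3 genes had a count in either untreated library. Casp12, a caspase of the inflammatory group, rose 510-fold from 1 count (95% counting interval 91.2 to 20160.0), and Clec2d, a lectin-like ligand of an inhibitory NK cell receptor, 371-fold from 2 counts (interval 102 to 3068). Floors and intervals cover counting error only. In all, 13 genes outside the list had at most 3 counts untreated and a mean of at least 5 CPM treated. The most abundant of them were predicted genes, Gm12185 at 557, 575 and 569.95 CPM treated, Gm43302 at 101, 100.05 and 116 CPM and Gm4841 at 95.7, 106 and 104 CPM. Gm12185 overlaps Tgtp1 and Gm43302 overlaps Gbp10 and Gbp6, all 3 of the standard list. Reads of overlapping genes may be shared, so these values are uncertain. Overlaps in this text are of whole gene spans. Exons were not compared, and how far reads are shared was not tested. The least even of the 13, Zfp968, had 0, 27.7 and 12.6 CPM in the 3 treated libraries, belongs to a family of similar zinc finger genes and lost its call in 4 alternatives (limma-voom, and without OVA untreated replicate 1, untreated replicate 2 or treated replicate 2). 9930111J21Rik1 (at least 85.0-fold higher) and Or2v1 both overlap Gm12185, and Or2v1 also overlaps Tgtp1, Tgtp2 and Ifi47 of the standard list, so their values are uncertain too.

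Further large increases outside the list, among them transcription factor, receptor and sensor genes, started from a low level. Genes named by rule, silent and check genes apart, were taken only if their 2 groups did not overlap. Their separation, here and below, is therefore no added support. Batf2, a bZIP partner of JUN proteins, was at 0.0548 and 0.162 CPM untreated and 106, 108 and 109 CPM treated (log2 change 9.86, SE 0.15, edgeR adjusted p = 5.32e-19). Il12rb1, a subunit of the IL-12 and IL-23 receptors best known from lymphocytes, was at 0.274 and 0.162 CPM untreated and 52.4, 49.6 and 51.9 CPM treated (log2 change 7.84, SE 0.15, edgeR adjusted p = 2.09e-17). Both genes were close to 0 in each untreated library and even across the 3 treated ones; Batf2 overlaps Arl2 on the opposite strand. Nod1, an intracellular sensor of bacterial peptidoglycan, was at 1.15 and 1.19 CPM untreated and 65.4, 62.3 and 61.8 CPM treated (log2 change 5.75, SE 0.093, edgeR adjusted p = 1.95e-18). Ddx60, a helicase-like antiviral gene, was at 1.31 and 0.811 CPM untreated and 67.1, 72.1 and 68.98 CPM treated (log2 change 6.02, SE 0.11, edgeR adjusted p = 1.03e-17). For Tnfsf10, which encodes the death ligand TRAIL, the values were 0.110 and 0.216 CPM untreated and 17.1, 14.5 and 13.2 CPM treated (log2 change 6.46, SE 0.25, edgeR adjusted p = 6.79e-13). In these 3 genes too the groups lay far apart, with Tnfsf10 the most uneven among treated libraries. Tnfrsf14, which encodes HVEM, a ligand of the BTLA checkpoint receptor, reached 7.501, 8.15 and 8.03 CPM from 0.164 and 0.162 CPM (log2 change 5.54, SE 0.30, edgeR adjusted p = 9.40e-11). A pair of genes known mainly from neurons rose as well: Prph, the intermediate filament peripherin, from 1.31 and 0.920 CPM to 251, 260.1 and 265 CPM (log2 change 7.85, SE 0.082, edgeR adjusted p = 4.91e-21), and Pacsin1, an adaptor of endocytosis, from 0.603 and 0.379 CPM to 21.9, 20.5 and 22.6 CPM (log2 change 5.45, SE 0.16, edgeR adjusted p = 1.22e-14). In both the libraries of each group lay close together and the groups far apart.

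Those of these genes whose symbol matched a promoter window were read for the 2 elements named above. Batf2 and Il12rb1 were not among them. The windows printed here run from 250 bases before to 50 after a gene's start in RefSeq (GRCm38.p6), 5′ to 3′ on the gene's strand, with matches in capitals: the ISRE core, which is GAAA, any 2 bases and GAAA again (on the other strand TTTC, any 2 bases and TTTC), and the GAS core TTCCNGGAA, which is its own reverse complement. They are shown as examples. Ddx60 (chr8:61927837-61928136, plus strand) holds a paired ISRE core. Tnfrsf14 (chr4:154928028-154928327, minus strand) and Clec2d (chr6:129180365-129180664, plus strand) hold single ISRE cores. Nod1 (chr6:54971612-54971911, minus strand) holds a GAS core in 1 of 2 windows. Mpeg1 (chr19:12460520-12460819, plus strand) was strongly induced and holds neither. Tenm4 (chr7:96170994-96171293, plus strand) fell and yet holds an ISRE core in 1 of 2 windows. Other kinds of match were found and are not printed. Gm12185 holds both cores in its window, and the ISRE core of 9930111J21Rik1 lies after the gene's start.
Ddx60: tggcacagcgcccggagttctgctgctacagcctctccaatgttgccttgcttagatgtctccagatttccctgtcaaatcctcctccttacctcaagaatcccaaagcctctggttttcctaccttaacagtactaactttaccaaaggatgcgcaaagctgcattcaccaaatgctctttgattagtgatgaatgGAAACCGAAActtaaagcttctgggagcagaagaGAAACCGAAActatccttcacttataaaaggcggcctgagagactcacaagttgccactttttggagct
Tnfrsf14: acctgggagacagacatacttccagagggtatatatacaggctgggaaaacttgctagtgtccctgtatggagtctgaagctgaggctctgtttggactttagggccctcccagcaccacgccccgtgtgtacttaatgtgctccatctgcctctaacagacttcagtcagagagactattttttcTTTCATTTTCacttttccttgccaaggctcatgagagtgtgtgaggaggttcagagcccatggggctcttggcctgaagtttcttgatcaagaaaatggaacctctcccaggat
Clec2d: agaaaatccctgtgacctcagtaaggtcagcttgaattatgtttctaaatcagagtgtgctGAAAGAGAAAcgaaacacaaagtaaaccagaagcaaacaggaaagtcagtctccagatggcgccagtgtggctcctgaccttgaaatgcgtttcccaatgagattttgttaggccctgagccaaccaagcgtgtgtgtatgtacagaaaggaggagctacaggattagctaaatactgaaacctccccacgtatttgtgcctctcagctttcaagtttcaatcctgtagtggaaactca
Nod1: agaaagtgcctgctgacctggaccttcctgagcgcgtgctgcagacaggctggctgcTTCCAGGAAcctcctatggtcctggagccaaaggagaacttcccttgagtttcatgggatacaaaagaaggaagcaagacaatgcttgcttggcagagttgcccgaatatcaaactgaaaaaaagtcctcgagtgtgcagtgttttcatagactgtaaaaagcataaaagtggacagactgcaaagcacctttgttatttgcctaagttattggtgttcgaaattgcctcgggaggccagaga
Mpeg1: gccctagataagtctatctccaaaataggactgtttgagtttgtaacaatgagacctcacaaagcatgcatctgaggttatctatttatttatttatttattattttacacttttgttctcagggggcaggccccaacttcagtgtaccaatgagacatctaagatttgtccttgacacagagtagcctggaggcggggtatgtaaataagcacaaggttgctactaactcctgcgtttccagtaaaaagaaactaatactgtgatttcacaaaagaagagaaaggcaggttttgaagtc
Tenm4: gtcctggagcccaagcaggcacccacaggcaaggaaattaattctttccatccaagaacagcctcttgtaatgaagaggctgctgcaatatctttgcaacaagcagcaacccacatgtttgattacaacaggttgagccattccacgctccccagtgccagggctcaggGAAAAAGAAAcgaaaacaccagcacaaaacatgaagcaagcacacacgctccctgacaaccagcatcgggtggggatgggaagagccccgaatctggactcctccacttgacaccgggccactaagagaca

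In Ddx60 the cores start 53 and 19 bases before the gene's start, in Tnfrsf14 64 bases, in Clec2d 189 bases and in Tenm4 81 bases before it. The GAS core of Nod1 starts 193 bases before that window's start site. Serpina3f, Casp12, Tnfsf10, Prph and Pacsin1 held neither core in any window read. A match describes the letters only and is not a bound site.

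Across the 10164 tested genes whose symbol matched a RefSeq promoter, the ISRE core was in a window of 3.88% and the GAS core of 1.54% (of all 32851 windows of the table, 3.44% and 1.15%). Among genes of the standard list that were at least 4-fold higher, 48.62% held the ISRE core. Outside the list the share was 18.01% (29 of 161) for genes at least 4-fold higher and 8.82% for those 2-fold to 4-fold higher. It was 3.79% for smaller increases, 2.81% for genes not called, 2.45% for decreases under 2-fold and 2.08% for larger decreases. The GAS core followed a flatter course, with 3.73% at 4-fold or more, 4.2% at 2-fold to 4-fold, 2.1% for smaller increases, 1.36% for genes not called and 0.69% and 1.04% for the 2 classes of decrease. These shares are descriptions, with no test. Of the genes at least 4-fold higher outside the list, most held neither core in this window, which says nothing about sites elsewhere.

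**Figure D2:**
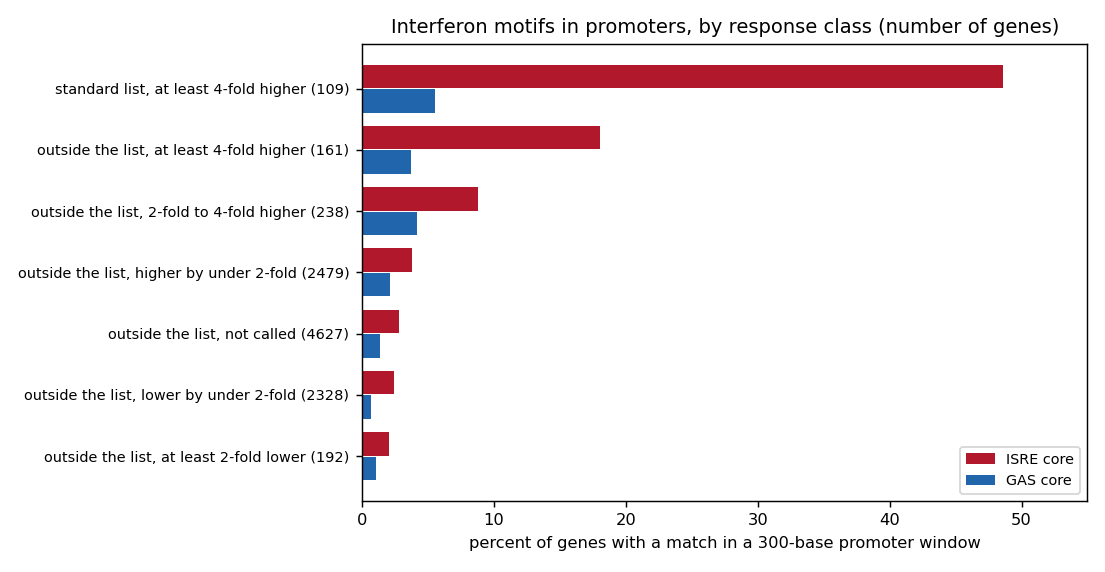
Percent of genes with an ISRE core (red) or a GAS core (blue) in a promoter window of 300 bases, by class of response in OVA cells, with the number of genes per class in brackets. The ISRE share falls from 48.62% in the standard list to 18.01% in the other genes at least 4-fold higher and to 2.08% in genes at least 2-fold lower.

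Measured by reads gained, the increases outside the list were led by abundant genes with modest changes. Gpnmb, a melanosome and lysosome membrane glycoprotein, went from 5857 and 5984 CPM to 7105, 7178 and 7133 CPM (log2 change 0.27, SE 0.021, edgeR adjusted p = 1.13e-08). The polyubiquitin gene Ubb went from 1032 and 1049.8 CPM to 1705, 1722 and 1798 CPM (log2 change 0.74, SE 0.033, edgeR adjusted p = 5.35e-12), and the melanosome fibril gene Pmel from 5449 and 5368 CPM to 6032, 5943 and 6046 CPM (log2 change 0.15). No treated library of these 3 genes fell into the untreated range, as the naming rule required, although the change in Pmel was small against its level. Larger changes at high levels were seen in Tmsb10, an actin monomer binding protein, with 276 and 298 CPM untreated and 667, 715 and 757 CPM treated (log2 change 1.31, SE 0.054, edgeR adjusted p = 1.66e-12), and in Nampt, the rate-limiting enzyme of NAD salvage, with 168 and 168 CPM untreated and 527, 541 and 541 CPM treated (log2 change 1.67, SE 0.03, edgeR adjusted p = 1.04e-17). Wars1, the tryptophanyl-tRNA synthetase and a known IFN-γ target, was at 179 and 183 CPM untreated and 552, 541 and 561 CPM treated. Samd9l, an antiviral gene, rose from 24.9 and 22.1 CPM to 392, 388 and 396 CPM (log2 change 4.06, SE 0.051, edgeR adjusted p = 5.50e-20). Csrp1, a LIM domain protein of the actin cytoskeleton, and Ctsb, which encodes the lysosomal protease cathepsin B, rose by 0.97 and 0.67 on the log2 scale.

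The decreases were smaller in size, and the largest of those named by rule fell by 2.24 on the log2 scale. At least 4-fold lower were 0.316% of all tested genes (49), against 2.89% at least 4-fold higher (449). Abca12, a lipid transporter known from skin, was at 90.5 and 82.6 CPM untreated and 18.03, 18.3 and 18.6 CPM treated (log2 change -2.24, SE 0.055, edgeR adjusted p = 8.61e-16). Adam12, a membrane metalloprotease, was at 59.8 and 63.1 CPM untreated and 13.7, 15.97 and 13.2 CPM treated (log2 change -2.10, SE 0.069, edgeR adjusted p = 7.29e-14). Zfp469, a large zinc finger gene linked to collagen production, was at 37.9 and 35.5 CPM untreated and 8.28, 7.65 and 8.92 CPM treated (log2 change -2.15, SE 0.079, edgeR adjusted p = 3.89e-13). In each of these genes every treated library lay far under both untreated ones, and the naming rule required that the groups not overlap. Tenm4, a teneurin adhesion protein, went from 25.9 and 24.4 CPM to 5.60, 6.64 and 5.80 CPM, and Igsf3, an immunoglobulin superfamily membrane protein, from 70.8 and 70.9 CPM to 18.5, 17.1 and 17.1 CPM (log2 changes -2.06 and -2.01). Itga4, the α4 integrin that binds VCAM-1 and fibronectin, was far more abundant and went from 292 and 281 CPM to 86.6, 87.7 and 79.3 CPM (log2 change -1.76, SE 0.041, edgeR adjusted p = 3.94e-16). Trim71, an RNA-binding ubiquitin ligase of early development, Sned1, a matrix protein, Mmp15, a membrane-bound matrix metalloprotease, Adam19 and Aldh1a3, which makes retinoic acid, fell by 1.99, 1.96, 1.80, 1.77 and 1.63 on the log2 scale. The 15 decreases named by rule lay between -2.24 and -1.63. Sned1 and Itga4 each overlap a gene of the opposite strand that rose, Mterf4 and Cerkl. A larger fitted decrease, chosen here after its values were seen, was that of the pseudogene Gpr137b-ps, with 6.35 and 6.98 CPM untreated and no counts in the 3 treated libraries. Reads of a pseudogene can be shared with its parent gene, so its value is uncertain.

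By reads lost, 3 genes led. Noct, a circadian phosphatase that acts on NADP(H), was at 6137 and 6159 CPM untreated and 2819, 2836 and 2787 CPM treated (log2 change -1.13, SE 0.022, edgeR adjusted p = 2.08e-17). Slc38a6, a member of the sodium-coupled amino acid transporter family, was at 3550.5 and 3528 CPM untreated and 1396, 1373 and 1343 CPM treated (log2 change -1.37, SE 0.026, edgeR adjusted p = 1.54e-17). Nopchap1, a chaperone of box C/D snoRNP assembly, was at 3360.4 and 3375 CPM untreated and 1186, 1166 and 1162 CPM treated (log2 change -1.52, SE 0.027, edgeR adjusted p = 7.25e-18). Their libraries agreed closely within each group, and together they went from 1.31% of all counts to between 0.528% and 0.544%. The gene span of Nopchap1 overlaps that of Aldh1l2 on the opposite strand, which rose (log2 change 0.74). How far the pair shares reads was not tested. Scd2, a fatty acid desaturase, went from 2933 and 2917 CPM to 1478, 1481 and 1466 CPM (log2 change -0.99, SE 0.027, edgeR adjusted p = 4.46e-15). Ftl1, the ferritin light chain, Nedd4, a ubiquitin ligase, and the glycolytic genes Eno1 and Gapdh fell by 0.48, 0.63, 0.67 and 0.23 on the log2 scale. The mitochondrially encoded mt-Cytb and mt-Nd5 fell by 0.67 and 0.57, the latter overlapping mt-Nd6 on the other strand.

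**Figure D3:**
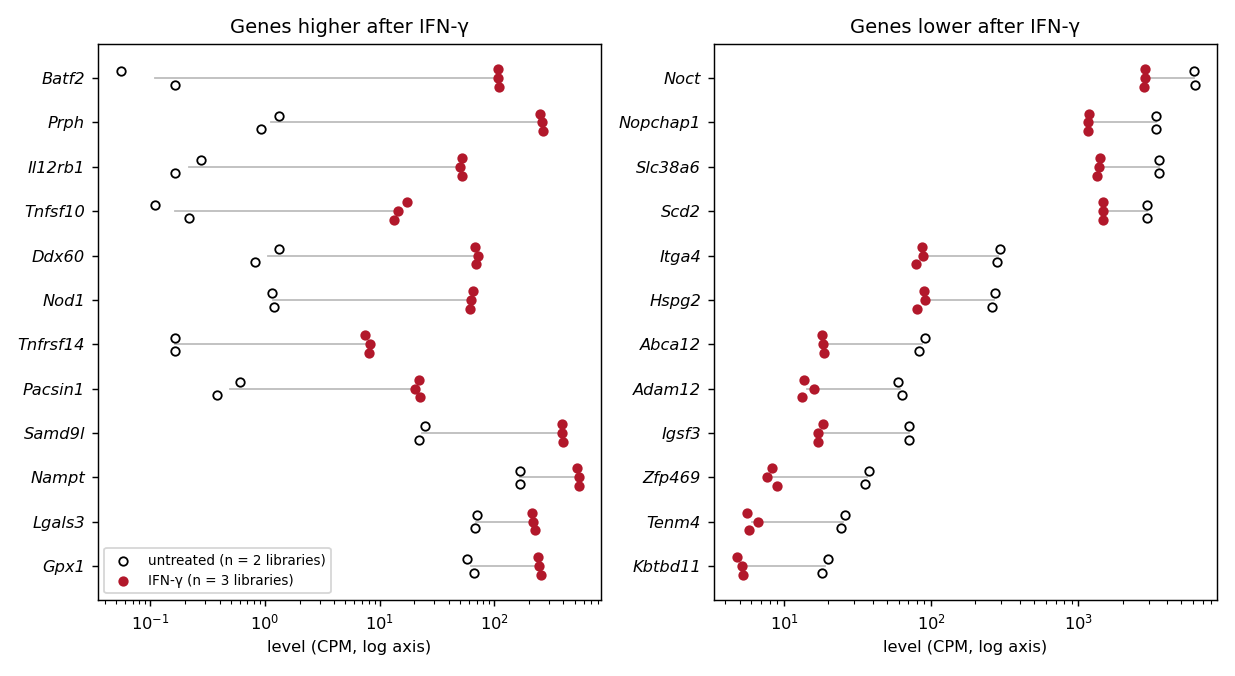
Level in each OVA library (CPM, log axis) of 12 genes that were higher and 12 that were lower after IFN-γ, with untreated libraries as open circles (n = 2), treated ones as red dots (n = 3) and a grey line between the group means. In each gene the 2 groups are apart, as the naming rule required. The 3 treated values of Batf2, near 107 CPM, lie closer together than its 2 untreated values near 0.

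Beyond single genes, lists of pathways, families and complexes were counted. A share near 25.9% higher and 22.9% lower is that of all tested genes and is read as no result about a list. Most list members are protein-coding genes, of which 30.2% rose and 25.6% fell. A share near those values is likewise read as no result. A gene silent in the untreated cells of both lines passed the count filter only through treated libraries. The increase of such a gene is no added support for its list. Transcript length and GC content moved with the response. In 4 nearly equal groups by transcript length, the median log2 change of protein-coding genes went from 0.121 in the shortest through 0.06 and 0.011 to -0.086 in the longest (Spearman's rho -0.214 across 12093 genes, which are not independent replicates). In 4 groups by GC content the medians were 0.091, 0.018, 0.01 and -0.026. The part of length and GC in each list's result was not tested. Where a median is given "less the length decile", each gene was taken relative to the median of genes of similar length, an alternative added after seeing the data. Members were named by their size of change in each list. Csf1, Tnfrsf10b, Cebpb, Jun, Calr, Canx, Stt3a, Stt3b, Fasn, Acaca, Acly, Scd1, Srebf1, E2f1, Ccna2, Ccnb1, Cdk1, Cdkn1b and Sox10 are named outside that rule and were chosen after their values were seen.

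**Figure D4:**
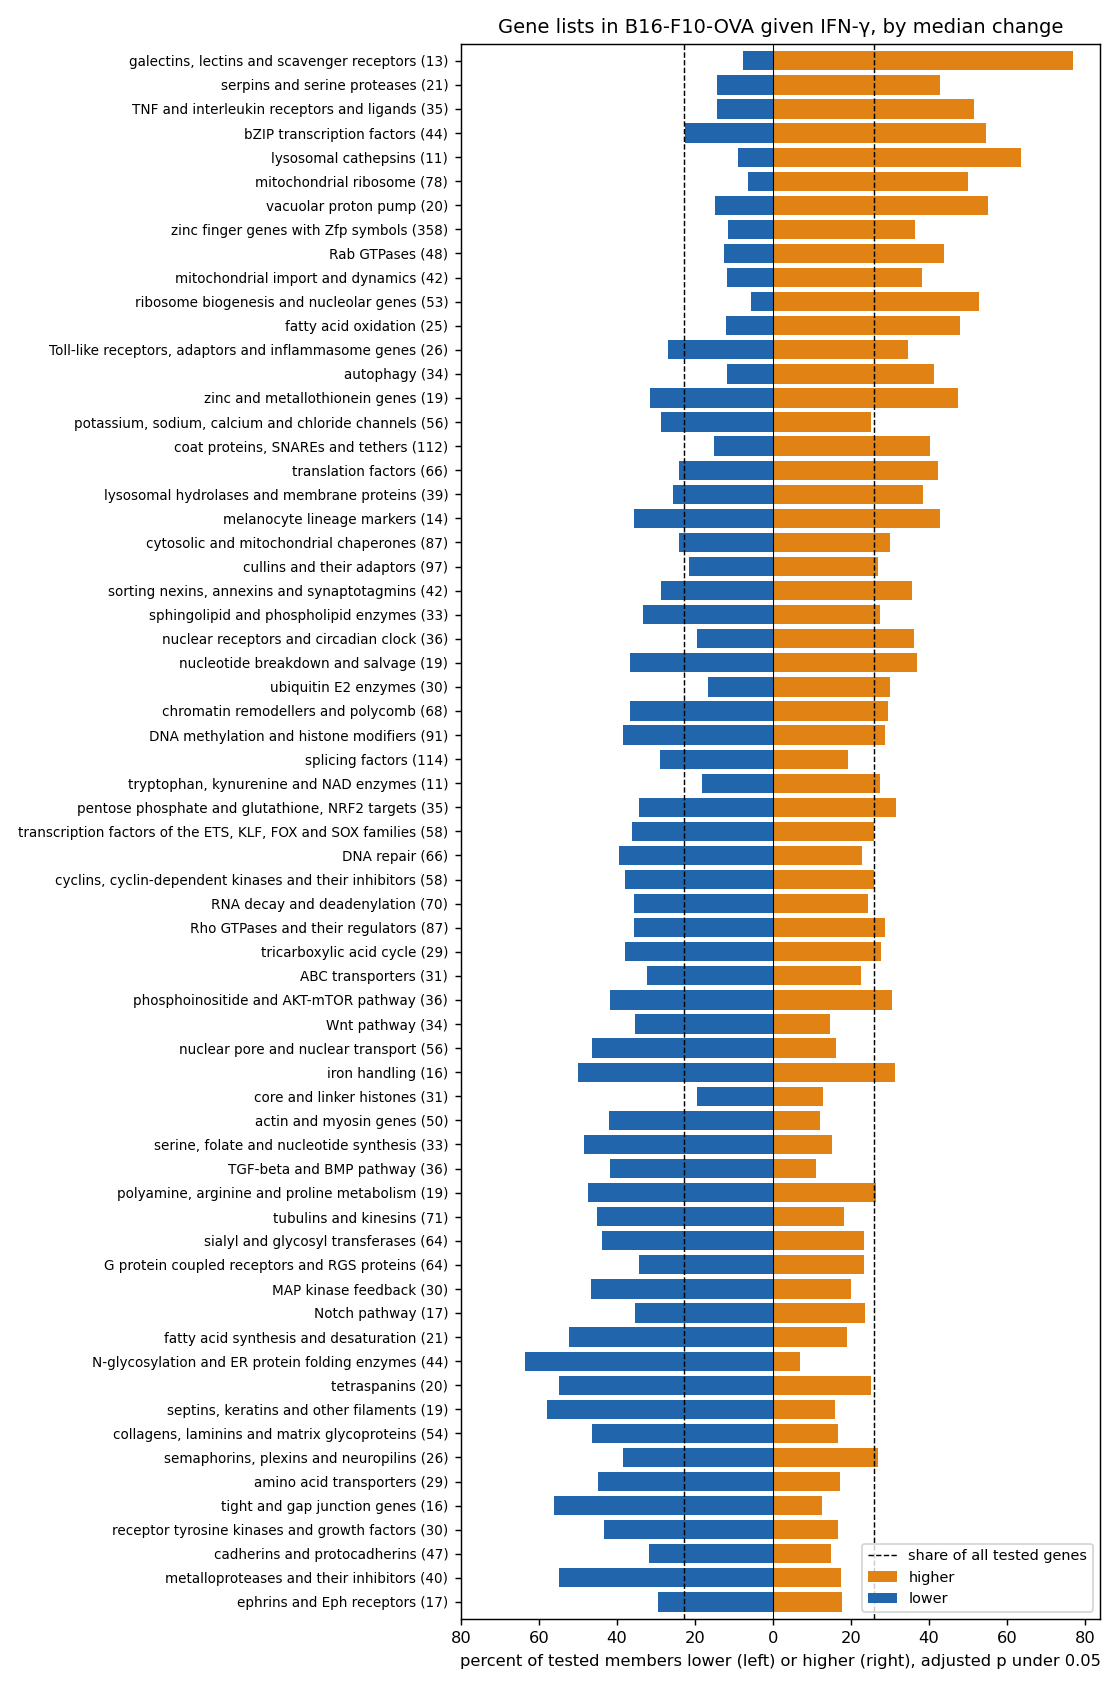
Percent of tested members that were higher (orange, right) or lower (blue, left) after IFN-γ in OVA cells for each list with at least 10 tested members, ordered by the median log2 change, with the number tested in brackets. Dashed lines mark the 25.9% and 22.9% of all tested genes, and among protein-coding genes the shares were 30.2% and 25.6%. Among the long bars are the lectins, with 10 of 13 members higher, and the N-glycosylation and ER folding enzymes, with 28 of 44 lower.

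Genes for surface and secreted molecules of immune signalling rose more often than they fell. Of 35 tested genes for TNF and interleukin ligands and receptors, out of 111 listed, 18 rose and 5 fell (median 0.49). Il18bp, the secreted decoy of IL-18, rose from 3.07 and 3.25 CPM to 60.8, 57.3 and 59.2 CPM (log2 change 4.22, SE 0.078, edgeR adjusted p = 1.41e-17). Its target Il18 rose from 0.876 and 0.974 CPM to 6.10, 5.85 and 5.80 CPM (log2 change 2.67, SE 0.21, edgeR adjusted p = 1.65e-08). The macrophage growth factor gene Csf1 also rose, from 13.5 and 14.98 CPM to 81.8, 80.5 and 83.3 CPM. Il18bp and Il18 kept their groups apart, as the naming rule required, and each overlaps a gene of the opposite strand, Numa1 and Bco2. Among the decreases was Tnfrsf10b, the TRAIL receptor gene, from 20.05 and 22.4 CPM to 14.7, 16.1 and 14.9 CPM (log2 change -0.48), while the TRAIL gene Tnfsf10 rose. With DESeq2, or without OVA untreated replicate 2, 3 genes of the list fell in place of 5.

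Of 13 tested lectin and scavenger receptor genes, 10 rose and 1 fell (median 0.84). The galectins, which bind β-galactosides on glycoproteins, were the abundant ones: Lgals9, a ligand of TIM-3, was at 24.3 and 21.9 CPM untreated and 180.2, 181 and 193 CPM treated (log2 change 3.00, SE 0.056, edgeR adjusted p = 1.42e-17), and Lgals3 at 69.8 and 67.9 CPM untreated and 211, 219 and 227 CPM treated (log2 change 1.67, SE 0.044, edgeR adjusted p = 2.80e-15). Lgals8, known for marking damaged endosomes, rose by 0.84. All 5 values of each galectin kept the groups apart, as the naming rule required. Of 26 genes of Toll-like receptors, their adaptors and inflammasomes, 9 rose and 7 fell (median 0.098). Its largest named increases after Nod1 were of Tlr3, the adaptor Myd88 and Ripk2, the kinase that signals downstream of NOD1. Tlr3, a receptor of double-stranded RNA, went from 16.7 and 15.5 CPM to 103, 101 and 103 CPM. The log2 changes of Myd88 and Ripk2 were 1.79 and 1.70. With DESeq2 only 4 members of this list fell.

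Serpin and cathepsin genes rose more often than they fell. Of 21 tested serpin and serine protease genes, 9 rose and 3 fell (median 0.73). Serpinb9, an inhibitor of granzyme B, was at 3.72 and 3.62 CPM untreated and 39.8, 41.2 and 39.4 CPM treated (log2 change 3.45, SE 0.079, edgeR adjusted p = 3.19e-16), and Plat, tissue plasminogen activator, rose by 1.05. Of 11 lysosomal cathepsins 7 rose and 1 fell (median 0.20). Ctso rose by 2.52, Ctsb by 0.67 and Ctsl by 0.56, while Ctsd, an aspartic protease, fell by 0.15. The list's largest fitted log2 change, 8.09, was of a cathepsin that the rule did not name. Of the 20 proton pump subunits that acidify lysosomes, 11 rose and 3 fell. Atp6v0a2 (0.76) and Atp6v1b2 (0.69) had the largest increases among those named by rule. A subunit that the rule did not name was at least 2-fold higher, and the list's largest fitted log2 change was 2.95. The median of the 20 subunits, 0.157, was 0.032 less the length decile, and only 6 rose without OVA untreated replicate 1. Of 34 autophagy genes 14 rose and 4 fell (median 0.091), with Gabarapl1, an ATG8 family member, from 80.9 and 79.3 CPM to 125, 122 and 119.7 CPM. Of 39 other lysosomal hydrolase and membrane genes, 15 rose and 10 fell.

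Among metalloprotease and matrix genes more fell than rose. Of 40 tested genes for metalloproteases and their inhibitors 22 fell and 7 rose (median -0.42, and -0.39 less the length decile). Besides Adam12, Adam19 and Mmp15 among the decreases, Adamts6 rose from 0.712 and 0.920 CPM to 9.68, 10.5 and 10.2 CPM (log2 change 3.62, SE 0.20, edgeR adjusted p = 1.11e-10). Of 54 collagen, laminin and matrix glycoprotein genes 25 fell and 9 rose (median -0.23). Hspg2, which encodes perlecan, a basement membrane proteoglycan, was at 272 and 259 CPM untreated and 89.2, 90.2 and 80.2 CPM treated (log2 change -1.62, SE 0.054, edgeR adjusted p = 9.59e-14), and the type IV collagen genes Col4a4 and Col4a1 fell by 1.31 and 1.03 on the log2 scale. Col4a1 and Col4a2 overlap at their starts on opposite strands. Groups did not overlap in these genes, as the naming rule required. The fibroblast marker sum given above was lower in the treated libraries too, and its part in the matrix counts was not tested.

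More adhesion and cytoskeleton genes fell than rose. Of 47 cadherin and protocadherin genes, 15 fell and 7 rose (median -0.40), and 4 rose without either untreated OVA library or with upper quartile factors. Cdh2, N-cadherin, went from 146 and 151 CPM to 96.1, 98.5 and 101 CPM, and Celsr2, a planar polarity cadherin, from 60.9 and 62.1 CPM to 26.03, 24.1 and 25.04 CPM (log2 changes -0.59 and -1.296). Cdh6 went the other way, from 0.110 and 0.162 CPM to 6.55, 5.90 and 6.08 CPM (log2 change 5.44, SE 0.28, edgeR adjusted p = 4.26e-11). Of 16 tight and gap junction genes 9 fell and 2 rose, with connexin 43, Gja1, at -0.71. Of 20 tetraspanins 11 fell and 5 rose (median -0.22).

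Of 50 actin and myosin genes 21 fell and 6 rose, with the filament cross-linker Flna from 902 and 902 CPM to 635, 644 and 609.9 CPM and the bundling protein Fscn1 at -0.60. Of 71 tubulin, kinesin and microtubule-associated genes 32 fell and 13 rose (8 without OVA untreated replicate 1), and of 19 tested filament genes 11 fell and 3 rose. Lmnb1, lamin B1, went from 162 and 152 CPM to 86.8, 88.01 and 89.00 CPM (log2 change -0.84, SE 0.036, edgeR adjusted p = 3.42e-12). Tubb3, a tubulin isotype known from neurons, was among the increases (log2 change 0.56). The medians of these 3 lists were -0.11, -0.13 and -0.22.

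**Figure D5:**
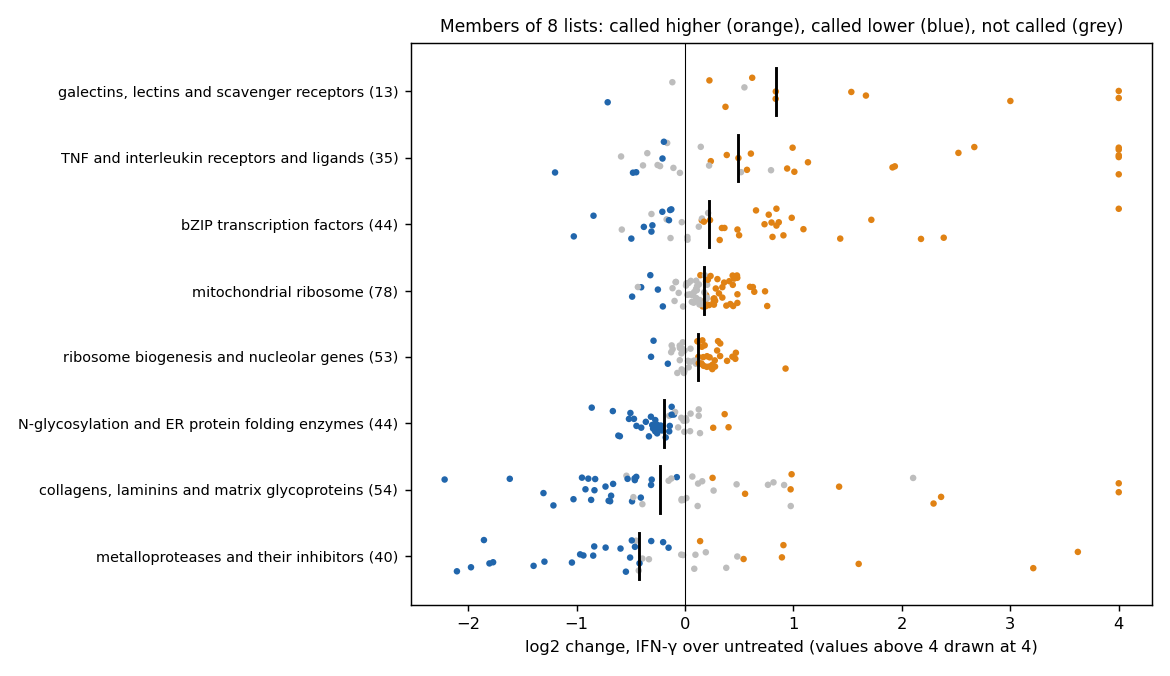
Log2 change of every tested member of 8 lists in OVA cells, coloured by call, with a black bar at the median and the number tested in brackets (values above 4 are drawn at 4). The lectin, TNF and interleukin lists spread far to the right, the mitochondrial ribosome and nucleolar lists shift by small amounts (medians 0.178 and 0.122), and the matrix and metalloprotease lists reach far to the left, with some members to the right.

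Growth factor and developmental signalling genes fell more often than they rose. The counts were 13 lower and 5 higher of 30 receptor tyrosine kinase and growth factor genes, 14 and 6 of 30 MAP kinase feedback genes, 15 and 4 of 36 genes of the TGF-β and BMP pathway and 12 and 5 of 34 Wnt pathway genes. Kit, the receptor of stem cell factor that melanocytes depend on, went from 9.64 and 9.63 CPM to 3.41, 5.29 and 5.02 CPM (log2 change -1.07, SE 0.14, edgeR adjusted p = 9.79e-06). The gene of its ligand, Kitl, rose from 3.29 and 3.52 CPM to 12.1, 12.03 and 11.04 CPM (log2 change 1.78, SE 0.13, edgeR adjusted p = 5.93e-09). The receptor gene was lower and the ligand gene higher in every treated library, a separation that the naming rule required. Axl, a receptor kinase linked to invasive melanoma states, rose by 1.49, and Igfbp4, an IGF-binding protein, fell by 1.15. Among the feedback genes, Spred2 fell by 0.97 and Etv5, an ETS factor that is a target of MAP kinase signalling, by 1.39, whereas Dusp6, a phosphatase of ERK, rose from 74.1 and 80.4 CPM to 133, 130.2 and 135 CPM. In the Wnt list Rspo3, a secreted enhancer of Wnt signals, rose from 0.164 and 0.325 CPM to 6.21, 7.48 and 6.47 CPM (log2 change 4.74, SE 0.26, edgeR adjusted p = 1.34e-10), with Tcf7 at 2.13 and the secreted Dkk3 at 1.39. Id2 and Id3, inhibitors of helix-loop-helix factors and BMP targets, rose by 0.90 and 1.29.

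Lipid genes changed in both directions. Of 21 genes for fatty acid synthesis and desaturation 11 fell and 4 rose (median -0.19, and -0.10 less the length decile), the decreases including Fasn, Acaca, Acly, Scd1, Scd2 and their regulator Srebf1. Elovl6, a fatty acid elongase, went from 113 and 111 CPM to 54.7, 51.2 and 50.7 CPM (log2 change -1.10, SE 0.042, edgeR adjusted p = 5.22e-13). Of 25 genes for fatty acid oxidation 12 rose and 3 (5 with upper quartile factors, 1 without OVA untreated replicate 2) fell (median 0.12, and 0.066 less the length decile), led by the isomerase gene Eci1, from 25.2 and 24.99 CPM to 54.5, 55.6 and 54.3 CPM (log2 change 1.13, SE 0.063, edgeR adjusted p = 1.38e-10). Ppargc1a, a coactivator of mitochondrial genes, went from 123.6 and 121 CPM to 170.1, 177 and 172 CPM. Acacb, the carboxylase isoform whose product limits fatty acid import into mitochondria, rose against the trend of the synthesis list (log2 change 1.69). Without OVA untreated replicate 1, or with upper quartile factors, 2 synthesis genes rose in place of 4.

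Other metabolic lists changed in mixed ways. Of 29 amino acid transporter genes 13 fell and 5 rose (median -0.29, and -0.17 less the length decile), with the taurine transporter Slc6a6 from 439 and 435 CPM to 269, 270.3 and 263 CPM. Only 3 rose with DESeq2, or without OVA untreated replicate 1, untreated replicate 2 or treated replicate 1. Of 33 genes for serine, folate and nucleotide synthesis 16 fell and 5 rose, with Cad, which starts pyrimidine synthesis, from 273 and 261 CPM to 173, 174 and 167 CPM. In nucleotide breakdown the split was 7 to 7, but Xdh, xanthine dehydrogenase, and Pnp, a nucleoside phosphorylase that overlaps Gm49342, rose by 1.80 and 1.64. Ckb, brain creatine kinase, went from 183 and 188 CPM to 70.1, 70.1 and 67.4 CPM (log2 change -1.42, SE 0.038, edgeR adjusted p = 3.30e-15). Of 35 pentose phosphate, glutathione and NRF2 target genes 11 rose and 12 fell. Its largest named increases were Gpx1, glutathione peroxidase, with 58.2 and 66.9 CPM untreated and 239.6, 246 and 256 CPM treated (log2 change 1.98, SE 0.052, edgeR adjusted p = 2.43e-15), and Mgst1, a microsomal glutathione transferase, with a log2 change of 1.92. Of 16 iron genes 8 fell, Fth1, the ferritin heavy chain, among them (-0.60), and 5 rose, with the copper oxidase ceruloplasmin, Cp, at 1.47. Of 29 genes of the tricarboxylic acid cycle 11 fell and 8 rose, or 17 and 3 with upper quartile factors. Without OVA untreated replicate 1, 4 of these rose, and without treated replicate 3, 5 rose.

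In the secretory pathway, enzymes of the endoplasmic reticulum fell more often than they rose. Of 44 genes for N-glycosylation and disulfide formation 28 fell and 3 rose (median -0.20, and -0.25 less the length decile). They included both catalytic subunits of oligosaccharyltransferase, Stt3a and Stt3b, its partners Dad1 (-0.67) and Magt1 (-0.62), and the lectin chaperones Calr and Canx (-0.45 and -0.33). Magt1 went from 433 and 422 CPM to 274, 283 and 280.2 CPM, and Txndc5 from 242 and 245 CPM to 159, 161 and 162 CPM. These changes were each under 2-fold. Of 64 sialyl and glycosyl transferase genes 28 fell and 15 rose. Of 112 coat, SNARE and tether genes 45 rose and 17 fell (median 0.076, and 0.045 less the length decile), or 32 and 28 with upper quartile factors. Of 48 Rab GTPases 21 rose and 6 fell (median 0.15, and 0.082 less the length decile), with Rab5c, of early endosomes, from 155 and 167 CPM to 279, 285 and 289.5 CPM (log2 change 0.82, SE 0.036, edgeR adjusted p = 4.10e-12). Snx10, a sorting nexin of endosomes, rose from 74.7 and 77.7 CPM to 328, 336 and 333 CPM (log2 change 2.13, SE 0.034, edgeR adjusted p = 1.91e-18).

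In ribosome-related lists more genes rose than fell, by small amounts. Of 53 genes for ribosome biogenesis 28 rose and 3 fell (median 0.122), and of 78 mitochondrial ribosomal proteins 39 rose and 5 fell (median 0.178). Noc4l, which acts in small subunit maturation, rose from 30.1 and 33.4 CPM to 61.97, 58.4 and 60.7 CPM (log2 change 0.93, SE 0.061, edgeR adjusted p = 1.45e-09), and Mrps34 from 26.3 and 25.4 CPM to 41.9, 44.8 and 44.3 CPM (log2 change 0.76, SE 0.059, edgeR adjusted p = 1.08e-08). Less the length decile the medians were 0.084 and 0.092. With upper quartile factors 20 biogenesis genes rose and 10 fell, and without parental treated replicate 3, 5 fell. Without OVA untreated replicate 1, 17 biogenesis and 25 mitochondrial ribosome genes rose, and without untreated replicate 2, 3 of the latter fell. Of 42 genes for mitochondrial import and dynamics 16 rose and 5 fell, a majority that was lost with upper quartile factors (9 and 10), while DESeq2 called 9 higher and leaving out either untreated OVA library 10. Translation factors (28 higher and 16 lower of 66) also changed majority with those factors (20 and 21). Eif2ak2, the double-stranded RNA-activated kinase PKR and a known interferon target, rose by 2.44, and Eif4ebp2, a repressor of cap-dependent translation, went from 439 and 422 CPM to 208, 212 and 209 CPM (log2 change -1.04, SE 0.031, edgeR adjusted p = 1.91e-14).

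Of 56 nuclear pore and nuclear transport genes 26 fell and 9 rose, with Nup210 from 303 and 302 CPM to 201, 189 and 185 CPM. With upper quartile factors 2 of them rose, with DESeq2 5, and without untreated OVA replicate 1 or 2, 4 or 5. Of 114 splicing factor genes 33 fell and 22 rose, and of 70 genes for RNA decay 25 fell and 17 rose (11 with upper quartile factors). Rbm43, an RNA-binding protein, rose by 2.10 and Zfp36, tristetraprolin, which destabilises cytokine mRNAs, by 1.44. Of 66 DNA repair genes 26 fell and 15 rose, with the damage kinase gene Atm from 93.9 and 99.3 CPM to 189, 194 and 174 CPM (log2 change 0.94, SE 0.056, edgeR adjusted p = 3.13e-10). Of 58 genes for cyclins, their kinases and inhibitors 22 fell and 15 rose, or 9 with DESeq2 or upper quartile factors and 8 without OVA untreated replicate 1. The members that fell included E2f1, E2f2, E2f3, Ccna2, Ccnb1 and Cdk1. Cdkn1b, which encodes the inhibitor p27, was 1 of the 15 that rose (0.36), and the others are not named. All of these names but E2f2 and E2f3 were picked after their values were seen, so they do not describe the list as a whole. The share of the list that rose, 25.9%, was that of all tested genes.

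Transcription factor families differed. Of 44 bZIP factors 24 rose and 10 fell (median 0.22, and 0.23 less the length decile). After Batf2, Atf3, a stress-induced factor, was at 9.70 and 8.38 CPM untreated and 44.7, 44.5 and 52.5 CPM treated (log2 change 2.39, SE 0.09, edgeR adjusted p = 4.95e-13), and Crem, a cyclic AMP responsive factor, at 14.4 and 14.1 CPM untreated and 63.6, 63.8 and 65.6 CPM treated (log2 change 2.18, SE 0.061, edgeR adjusted p = 6.65e-15). Cebpb and Jun were among the others that rose (0.84 and 0.80). Of 58 ETS, KLF, FOX and SOX genes 21 fell and 15 rose, with Elf1 at 1.37 and Etv5 and Elk3 at -1.39 and -1.21. Of 358 zinc finger genes with Zfp symbols 130 rose and 41 fell (median 0.151, and 0.142 less the length decile). Most of these changes were under 2-fold, and 12 were at least 2-fold higher and 3 at least 2-fold lower. Members of this family resemble each other, and reads can be shared between them. Of 91 DNA methylation and histone modifier genes 35 fell and 26 rose, with Dnmt3a, a de novo DNA methyltransferase, from 141 and 136 CPM to 72.8, 67.9 and 65.3 CPM (log2 change -1.02, SE 0.045, edgeR adjusted p = 5.88e-12) and the acetyltransferase Kat2b from 86.6 and 86.4 CPM to 180.4, 182 and 176 CPM. Of 68 chromatin remodeller and polycomb genes 25 fell and 20 rose, or 13 with DESeq2 or without either untreated OVA library and 12 with upper quartile factors.

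Among the 14 melanocyte lineage genes 6 rose and 5 fell, none by 2-fold. Mitf, the master regulator of the lineage, went from 584 and 594 CPM to 821, 831 and 817 CPM (log2 change 0.48, SE 0.029, edgeR adjusted p = 4.13e-10), and Sox10 rose by 0.16. Tyr, tyrosinase, which starts melanin synthesis, went from 884 and 903 CPM to 663, 681 and 689 CPM (log2 change -0.40, SE 0.029, edgeR adjusted p = 5.80e-09). Mitf and Sox10 thus rose while Tyr fell. The enzyme genes Tyrp1 and Dct moved less than Tyr. Tyrp1 was at 10026 and 10070 CPM untreated and 9383, 9712 and 9861 CPM treated. Dct was at 5896 and 6010 CPM untreated and 5606, 5723 and 5806 CPM treated. Without OVA untreated replicate 2, 3 of the 14 fell.

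By gene biotype (GENCODE M21, matched by Ensembl ID for 14288 tested genes), 30.2% of 12093 protein-coding genes rose and 25.6% fell. The shares of called genes were lower among 1375 long noncoding genes, of which 151 rose and 175 (12.7%) fell. At 2-fold or more, 79 of these were higher and 61 lower, against 619 and 229 of the protein-coding genes, so at that size the shares were not lower. The noncoding genes given next were taken from among the largest increases and decreases, and Gm40652 was not the largest decrease. Zfp469, given above with a log2 change of -2.15, is in the noncoding class of GENCODE M21 and fell more. 9330175E14Rik had 0.0548 and 0 CPM untreated (1 count) and 23.5, 24.6 and 24.98 CPM treated, and it overlaps Nlrc5 on the opposite strand. Gm40652 was at 414 and 427 CPM untreated and 120, 130 and 125 CPM treated (log2 change -1.75, edgeR adjusted p = 3.80e-17).

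Along the chromosomes, in the gene order of GENCODE M21, 11 runs of at least 4 neighbouring tested protein-coding genes were each at least 2-fold higher, and no such run was lower. Of the 12093 tested protein-coding genes 619 were at least 2-fold higher and 229 at least 2-fold lower, so lower runs had fewer genes to form from. The counts of runs were not tested. In 6 of the 11 runs every gene was on the standard list, as in the run of 9 genes that holds H2-DMa and H2-Eb1 on chromosome 17. The run of 10 with Ifi203 and Ifi213 on chromosome 1 had 9 listed genes. The run of 11 with Tgtp1 and Irgm1 on chromosome 11 had 4. Reads can be shared between relatives and overlapping genes within such runs.

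The response was set against that of the parental line. The difference of responses (OVA minus parental, tested in the same edgeR fit) was called for 0.0773% of the tested genes higher in OVA (12) and 0.264% lower (41). Of the genes named here, 9 were among them. Kbtbd11, a kelch adaptor protein, went from 19.8 and 18.01 CPM to 4.76, 5.17 and 5.30 CPM in OVA cells, a log2 change of -1.89 against -0.71 in the parental line (difference -1.19, SE 0.11, edgeR adjusted p = 6.75e-05). Notch1 rose in both, by 1.16 in OVA and 2.06 in the parental line (difference -0.90, SE 0.13, adjusted p = 0.0029). Nr4a3, an immediate early nuclear receptor, had log2 changes of 0.48 in OVA and 0.02 in the parental line (difference 0.46, SE 0.058, adjusted p = 0.00105). For all 3 the call held when any 1 of the 10 libraries was left out. For the 30 largest increases and decreases by fold, Kbtbd11 apart, the difference was not called, which does not show that the lines respond alike.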

How the data were processed

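Poly-T selected RNA of 10 libraries was sequenced, and the authors deposited 1 table of raw counts per gene. HISAT2 2.0.5, featureCounts 1.6.0 and the build GRCm39 are named in the submitters' processing notes, and strand use is not given in the sources used here. Of 77175 entries 39963 had no counts and 15526 passed edgeR's filterByExpr. All 10 libraries (17728722 to 19642533 counts) were fitted together with TMM factors in edgeR 4.0.16 (R 4.3.3), 1 coefficient per group, by the quasi-likelihood test with Benjamini-Hochberg adjustment over all tested genes. A gene was called at an adjusted p under 0.05. The script was tested on simulated data. Replicates differed by more than sampling noise.

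The members and lists were chosen with earlier results of these data known. By rule, the text names the 15 largest changes by log2 in each direction and the 10 by CPM outside the standard interferon list, among genes whose symbol is not a predicted gene name (Gm with digits, or ending in Rik or -ps) and that were called in every fit without 1 OVA library and with DESeq2, at 5 CPM or more and without overlap between groups; up to 10 silent genes with at most 3 counts untreated, whatever their name; up to 4 members per list; 4 genes as a check of the treatment; and called differences between the lines. Alternatives were DESeq2 1.42.0, limma-voom 3.58.1, other scalings and filters, a replicate term, a stricter threshold and leaving out each library. Promoter windows came from RefSeq (GRCm38.p6), so their coordinates are not those of the deposited build.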

Additional observations from a re-analysis of the deposited data

Results flagged for a closer look

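Of the genes named in the report, 9 had a response to IFN-γ that differed between the 2 lines by a test of the difference itself (OVA minus parental log2 change, edgeR, adjusted p under 0.05 over all tested genes). Smaller increases or larger decreases in OVA were measured for Kbtbd11 (-1.19), Notch1 (-0.90), mt-Nd5 (-0.43), Pdk1 (-0.30), Eng (-0.22) and Eno1 (-0.22). Larger increases in OVA were measured for H2-K1 (0.60), Nr4a3 (0.46) and Gabarapl1 (0.26). With any 1 of the 10 libraries left out, the call held in all 10 fits for Kbtbd11, mt-Nd5, Notch1, Nr4a3 and H2-K1, in 7 for Eno1, in 3 for Pdk1 and in 2 each for Gabarapl1 and Eng. DESeq2 gave no adjusted p for Kbtbd11 and Notch1. Which property of the lines goes with these differences was not tested.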

How the results depend on the processing

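All counts here are of genes called in OVA cells, beside 4017 higher and 3563 lower. DESeq2 called 3135 and 2930, limma-voom 3966 and 3600. Leaving out 1 library gave 3022 to 4050 higher, 2817 to 3732 lower, 763 to 866 at least 2-fold higher and 364 to 482 at least 2-fold lower. Genes at least 2-fold lower went from 433 to 256 with a stricter filter on low counts, whose construction leaves fewer genes tested, and to 283 at an adjusted p under 0.01. The difference between the lines moved most: 53 genes with edgeR, 109 with DESeq2, 284 with no filter, 21 at an adjusted p under 0.01 and 21 to 107 with 1 library left out (21 without parental untreated replicate 1, 22 and 23 without OVA untreated replicates 2 and 1, 107 without parental treated replicate 3). The cause was not tested. A replicate block gave 3853 higher, 3420 lower and 165 differing between the lines. Deviations of same-numbered OVA libraries correlated at -0.0039 and 0.013, and the numbers were not taken to pair the samples. With upper quartile factors the balance of all genes turned to 3167 higher and 4318 lower. The majority also turned in translation factors (20 and 21), mitochondrial import (9 and 10) and chaperones (18 and 27, from 26 and 21). It turned as well in cullins and their adaptors (20 and 26, from 26 and 21). In sorting nexins, annexins and synaptotagmins it went to 13 and 15, from 15 and 12. Of the genes named by rule, none changed direction in OVA under these alternatives, and Zfp968 alone lost the call of its change in OVA. Silent and check genes apart, genes were named only if DESeq2 and each fit without 1 OVA library called them in the same direction. Those alternatives could therefore not remove their calls. Zfp968, a silent gene, was not under that condition. The other scalings and filters, limma-voom, the replicate term and leaving out parental libraries were not conditions. Genes named outside the rule were not followed, and calls lost for the difference between the lines are given with those genes. With 2 untreated libraries and unknown culture origin, small changes rest on few values.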
